A study of Mus musculus with 16 samples.

Results

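The 7 genes described here are the 6 mouse ceramide synthases, Cers1 to Cers6, and Gdf1, whose gene model overlaps that of Cers1. They were selected on their symbols, with the values of the single pups for Cers1 and Gdf1 already known, from the 36930 entries of the gene table, and all 7 were among the 21183 entries that passed the filter on low values. Because the choice rests on the genotype values, the genotype differences of the 7 genes are given as a description with no test. The tissue was brain cortex of C57BL6 mouse pups at postnatal day 7, with 8 Avil-ChR2 and 8 ChR2-flfl pups. Both genotypes carried the Ai27D allele, a channelrhodopsin-2 and tdTomato fusion behind a loxP-flanked STOP in the Rosa26 locus, and were kept in blue light for 1 h daily on postnatal days 1 to 5. The Avil-ChR2 pups also carried Cre under the advillin promoter, which acts mainly in nociceptive sensory neurons outside the cortex, so that only these pups expressed the light-gated channel. The ChR2-flfl pups had no Cre and were litter mates according to the study's methods. Pup numbers formed a run from 26 to 33 and another from 35 to 42, and each run held 4 Avil-ChR2 and 4 ChR2-flfl pups.

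Ceramide synthases sit in the membrane of the endoplasmic reticulum and join a sphingoid base to a fatty acyl-CoA, the step that makes ceramide or its dihydro form. Each isoform prefers acyl chains of certain lengths, so that the mixture of isoforms in a tissue shapes its mixture of ceramides, sphingomyelins and glycolipids. CERS1 uses stearoyl-CoA and is known as the neuronal isoform, whereas CERS2 makes the very long-chain species that myelin contains. GDF1 is a secreted ligand of the TGF-beta family, best known for its part with NODAL in setting the left-right axis of the embryo. Cers1 and Gdf1 are a textbook case of a mammalian transcript that holds 2 reading frames, with that of GDF1 downstream.

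Depth ranged from 30549126 to 48711134 reads per pup, and 1 read corresponded to about 0.0206 CPM in most libraries, where CPM are reads scaled to the size of the library with the trimmed mean of M-values (TMM). Avil, the gene whose promoter drives Cre, was at 37.3 CPM or above in every Avil-ChR2 pup and at 1.46 CPM or below in every ChR2-flfl pup. All markers of neurons, astrocytes and cells of the oligodendrocyte lineage were read in every pup, and the microglial marker P2ry12 was listed with no value. No gene of the 13 marker lists was called between genotypes, beside 2 of 21183 entries (0.00944%) over the whole table. Sex was given by the labels and, with 1 difference, by an additional file. The library of Avil-ChR2 replicate 4 was labelled female, male in the additional file, and had 54.7 CPM of the Y-linked gene Ddx3y, which was at 50.7 CPM or above in the pups listed as male in the additional file and at 2.57 CPM or below in those listed as female. Xist was listed with a value in only 2 pups and gave no check of sex.

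The Cers1 and Gdf1 entries were almost the same stretch of the genome. The Cers1 entry spanned chr8:70315775-70331588 and the Gdf1 entry chr8:70315775-70331592, both on the plus strand of the mm10 (GRCm38) build, so that the Gdf1 entry held 4 bases more and shared the other 15814. In the GENCODE annotation of GRCm38, the Gdf1 transcript is 1349 bases long and lies whole, letter for letter, within a Cers1 transcript of 2711 bases, of which it covers 49.8%. The coding region of CERS1 ends in exon 7 of 8 of this transcript, and the coding region of GDF1 starts in the same exon, with 401 bases between them. A further Cers1 transcript, of 2728 bases, has exactly the ends of the deposited Gdf1 entry, and the coding region given for it is that of GDF1. The sequences are shown because they place both reading frames in 1 transcript and show the first promoter listed for both genes. The first line is the end of the CERS1 coding region at chr8:70329538-70329580 with its stop codon in capitals, and the second is the start of the GDF1 coding region at chr8:70329982-70330041 with its start codon in capitals, both 5′ to 3′ on the plus strand of GRCm38 from GENCODE. The third is the stretch at chr8:70315525-70315774 that RefSeq (GRCm38.p6) lists as the 250 bases before the first start site of both genes, with the GC box GGGCGG in capitals.
Cers1 coding end: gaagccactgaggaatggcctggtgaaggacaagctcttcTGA
Gdf1 coding start: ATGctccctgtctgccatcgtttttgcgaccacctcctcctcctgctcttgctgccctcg
Cers1 and Gdf1 first promoter: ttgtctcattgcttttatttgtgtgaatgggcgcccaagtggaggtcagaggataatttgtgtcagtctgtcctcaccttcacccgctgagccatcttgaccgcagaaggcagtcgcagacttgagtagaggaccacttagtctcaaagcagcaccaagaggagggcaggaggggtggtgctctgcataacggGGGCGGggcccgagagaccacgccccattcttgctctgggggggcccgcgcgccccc

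The first promoter held 1 match to GGGCGG, the letters of a GC box, searched on both strands, and no match to CCAAT, none to the TATA box letters TATAAA and none to the E-box letters CACGTG. Of the 32817 RefSeq promoters, cut to the same length, 32.7% held GGGCGG, 33.8% held CCAAT, 12.4% held TATAAA and 6.02% held CACGTG. For Gdf1, RefSeq lists a further promoter at chr8:70329515-70329764, which contains the end of the CERS1 coding region printed above and held 2 GC boxes and none of the other motifs. The promoters of Cers2 and Cers5 held 2 GC boxes each and that of Cers4 held 1, whereas those of Cers3 and Cers6 held none. CACGTG occurred in the promoters of Cers2 and Cers6, which also held 1 CCAAT each. For Cers2 these matches were at the start site listed at the beginning of the gene, and a second Cers2 promoter held none of the 4 motifs.

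Reads of the locus were divided about evenly between both entries in 14 pups and fell on Gdf1 alone in the other two. Cers1 had no value in Avil-ChR2 replicates 1 and 2, where Gdf1 was at 76.3 and 64.4 CPM, from 3727 and 3129 reads. A count of 0 allows up to 3 reads, which is 0.0614 CPM in replicate 1 and 0.0617 CPM in replicate 2. In the other 14 pups Cers1 was between 28.3 and 37.4 CPM and Gdf1 between 25.8 and 38.2 CPM. Gdf1 made up 47.7% to 50.9% of the sum of both in these pups, with a median of 49.3%. The SD of this share was 1.03 percentage points, beside the 0.905 points that binomial counting alone gives. These like SDs do not show that the share varied by counting alone, since the share rose with the sum over the same 14 pups (Pearson r = 0.927). That relation was noticed in the data and is a description, with Gdf1 part of both measures. The share in the other two was 100%, with a lower 95% Wilson limit of 99.9% in each. These limits cover counting error only.

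**Figure D1:**
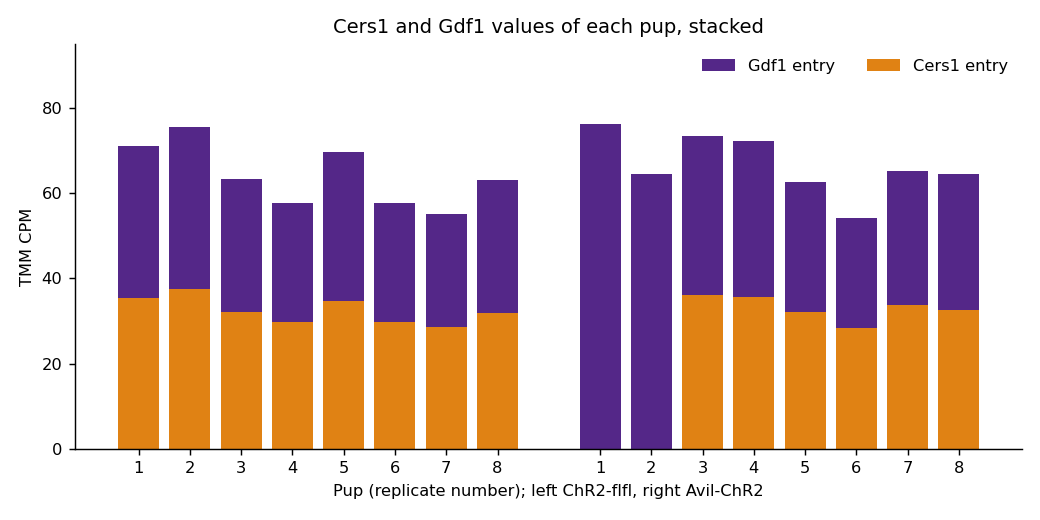
Stacked bars give the Cers1 (orange) and Gdf1 (purple) values of each pup in TMM CPM, with the 8 ChR2-flfl pups on the left and the 8 Avil-ChR2 pups on the right. The bars of Avil-ChR2 replicates 1 and 2 hold no Cers1 part, yet their whole heights of 76.3 and 64.4 CPM lie within or just above the range of the other pups, 54.2 to 75.6 CPM.

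With both entries taken apart, the Avil-ChR2 mean was lower than the ChR2-flfl mean for Cers1 (24.8 against 32.4 CPM, with empty values as 0) and higher for Gdf1 (41.8 against 31.7 CPM). Cers1 was lowest at 28.5, median 32.1 and highest 37.4 CPM in ChR2-flfl pups. In Avil-ChR2 pups it had no value in 2 pups, and the highest of the other 6 was 36.0 CPM. Gdf1 was lowest at 26.6, median 31.2 and highest 38.2 CPM in ChR2-flfl pups, and 25.8, 34.2 and 76.3 CPM in Avil-ChR2 pups. The genotype ranges overlapped for both entries, although the 2 pups with no Cers1 value lay outside the ChR2-flfl range of each. The ranges also overlapped once these 2 pups were set aside. The fitted log2 difference, Avil-ChR2 minus ChR2-flfl, was -2.48 (SE 1.39) for Cers1, a value that depends on the log2 of -5 given to empty cells and is no bound. It was 0.31 (SE 0.18) for Gdf1. Without these 2 pups the log2 differences were 0.03 (SE 0.064) for Cers1 and 0.02 (SE 0.088) for Gdf1. Both pups belong to numbers 26 to 33, and within the numbers 35 to 42 the log2 differences were 0.02 (SE 0.071) for Cers1 and -0.01 (SE 0.088) for Gdf1.

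Summed in each pup, Cers1 and Gdf1 were at 64.2 ± 7.35 CPM in ChR2-flfl and 66.6 ± 7.08 CPM in Avil-ChR2 pups (SD, n = 8 each). The sums ran from 55.2 over a median of 63.3 to 75.6 CPM in ChR2-flfl pups and from 54.2 over a median of 64.9 to 76.3 CPM in Avil-ChR2 pups, so that the genotypes overlapped along nearly the whole range. The 2 pups with no Cers1 value ranked 1 and 9 from the top among the 16 sums. The log2 difference of the sum was 0.05 (SE 0.070), with 0.10 (SE 0.080) among pups 26 to 33 and 0.01 (SE 0.076) among pups 35 to 42. Why the reads of 2 pups were listed on 1 entry was not tested.

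The pair was unusual among the deposited entries. It was 1 of 2 pairs of entries on the same strand whose ends lay within 10 bases of each other, and the only one of these with at least 100 reads in every pup. Entries that were well read in some pups and empty in others were rare but not limited to Cers1. Of 12095 entries with a median above 5 CPM where present, 20 were empty in 1 to 15 pups, and 6 of these besides Cers1 were also empty in both Avil-ChR2 replicates 1 and 2. The count does not show a trait of these 2 pups, because it includes entries empty in most pups, such as Xist with a value in only 2. No other pair among the 7 genes shared any stretch of 50 bases in the GENCODE transcripts, whereas all 1300 such words of Gdf1 occurred in Cers1.

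The other ceramide synthases differed between the genotypes by less than the spread between pups. Cers2, the isoform for very long chains, was lowest at 36.0, median 37.2 and highest 38.3 CPM in ChR2-flfl pups and 34.6, 37.1 and 38.8 CPM in Avil-ChR2 pups. Its means were 37.1 ± 0.955 and 36.8 ± 1.41 CPM (SD, n = 8 each), with a log2 difference of -0.01 (SE 0.029), and the ranges overlapped fully. Cers2 was the steadiest of the family, with a coefficient of variation of 3.26% over the 16 pups against the 2.41% that counting alone gives.

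Cers4, which acts on long acyl chains, was lowest at 62.5, median 69.3 and highest 74.1 CPM in ChR2-flfl pups and 65.7, 67.9 and 70.3 CPM in Avil-ChR2 pups. All 8 Avil-ChR2 pups lay inside the ChR2-flfl range. The means were 69.1 ± 4.16 and 67.9 ± 1.46 CPM, and the log2 difference was -0.02 (SE 0.033).

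Cers5 and Cers6 both use palmitoyl-CoA and make the ceramides with the shorter of the common acyl chains. Cers5 was lowest at 73.8, median 76.2 and highest 83.5 CPM in ChR2-flfl pups and 73.7, 78.2 and 79.6 CPM in Avil-ChR2 pups, with means of 77.3 ± 3.36 and 77.1 ± 2.22 CPM. Cers6 was lowest at 68.5, median 76.2 and highest 81.7 CPM in ChR2-flfl pups and 68.7, 75.6 and 78.4 CPM in Avil-ChR2 pups, with means of 76.0 ± 4.72 and 75.3 ± 3.32 CPM. The genotypes overlapped in both genes, and the log2 differences were -0.00324 (SE 0.029) for Cers5 and -0.01 (SE 0.038) for Cers6.

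Cers3, the isoform for ultra-long chains that is best known from skin and testis, was read at a low level in every pup. It was lowest at 0.970, median 1.08 and highest 1.43 CPM in ChR2-flfl pups and 0.840, 1.03 and 1.29 CPM in Avil-ChR2 pups. The means were 1.11 ± 0.143 and 1.04 ± 0.161 CPM, and the log2 difference was -0.10 (SE 0.12). Its coefficient of variation of 14.1% was the same as the 14.1% expected from counting, so that differences between pups were not detectable at this depth.

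**Figure D2:**
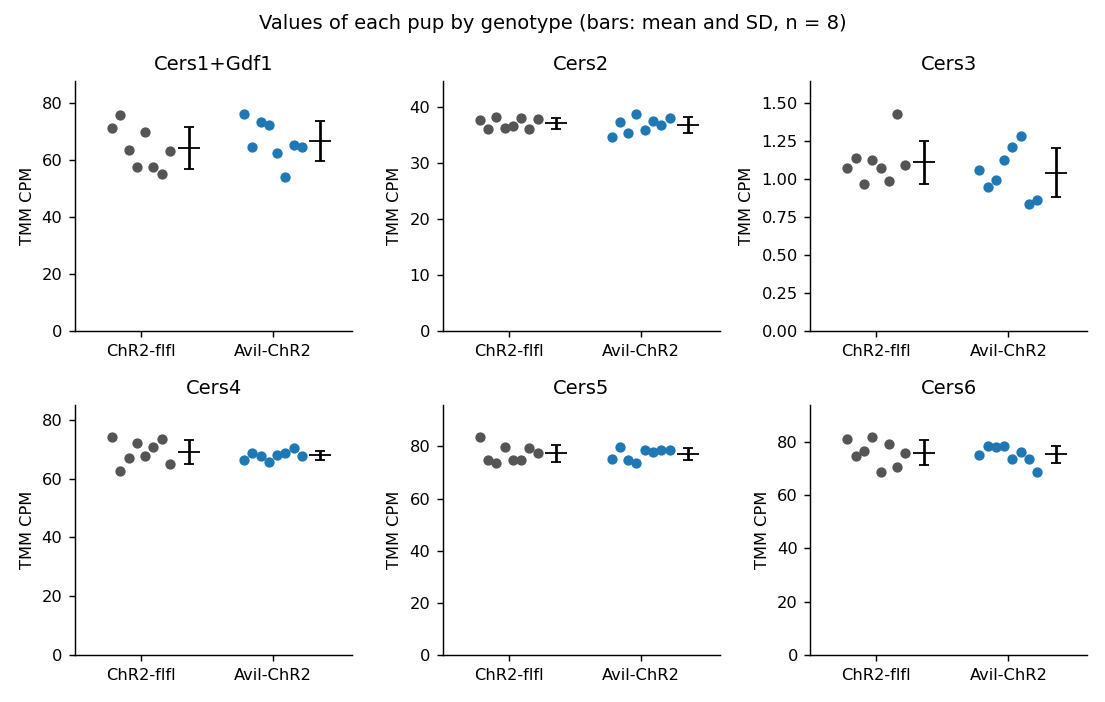
Each point is the TMM CPM of 1 pup, with ChR2-flfl in grey and Avil-ChR2 in blue, and the black bars give mean and SD of the 8 pups. In each of the 6 panels the genotypes overlap, and the sum of Cers1 and Gdf1 (54.2 to 76.3 CPM) spreads most of the 5 well-read panels.

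Over all 21183 entries, limma's moderated test with Benjamini-Hochberg adjustment called 2 for genotype, Avil and 1 other, which is 0.00944% of those tested. For the 7 genes this comparison stays a description, since they were chosen with these values known. In bulk cortex, fewer cells of a type and less RNA per cell cannot be told apart.

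Between isoforms, levels can be compared only per length of transcript. On the scale of CPM per kb of the longest GENCODE transcript, Cers5 was highest at 27.8 ± 0.993 (SD, n = 16), followed by Cers1 plus Gdf1 at 24.0 ± 2.60, Cers2 at 16.7 ± 0.531, Cers6 at 10.8 ± 0.563, Cers4 at 7.23 ± 0.324 and Cers3 at 0.332 ± 0.0466. Cers5 and the sum were neighbours that overlapped, with Cers5 above the sum in 14 of 16 pups. Every other neighbour was separated, the higher gene being above the lower in all 16 pups. The order rests on transcript length. Per kb of coding sequence, which is of like length in the family (1053 bases for Cers1 to 1260 for Cers3), Cers6 at 64.2, Cers5 at 62.0 and Cers4 at 58.0 CPM per kb lay close together, with overlapping ranges between each and the next. Within pups, Cers6 was above Cers5 in 11 of 16, whereas Cers5 was above Cers4 in all 16. This scale counts reads of the whole transcript but divides by coding bases only, so it raises genes with long stretches outside the coding region. The longest transcripts hold 9475 bases for Cers4, 7038 for Cers6 and 2775 for Cers5. Cers2 at 32.4 and Cers3 at 0.855 CPM per kb were lower, and Cers3 was last on each of these scales. The place of the Cers1 and Gdf1 sum on this scale rests on the length it is divided by. Over the 2127 coding bases of both reading frames it was at 30.7 ± 3.33 CPM per kb (SD, n = 16), with Cers2 above it in 11 of 16 pups, whereas over the 1053 bases of CERS1 alone it was at 62.1 CPM per kb, next to Cers5.

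**Figure D3:**
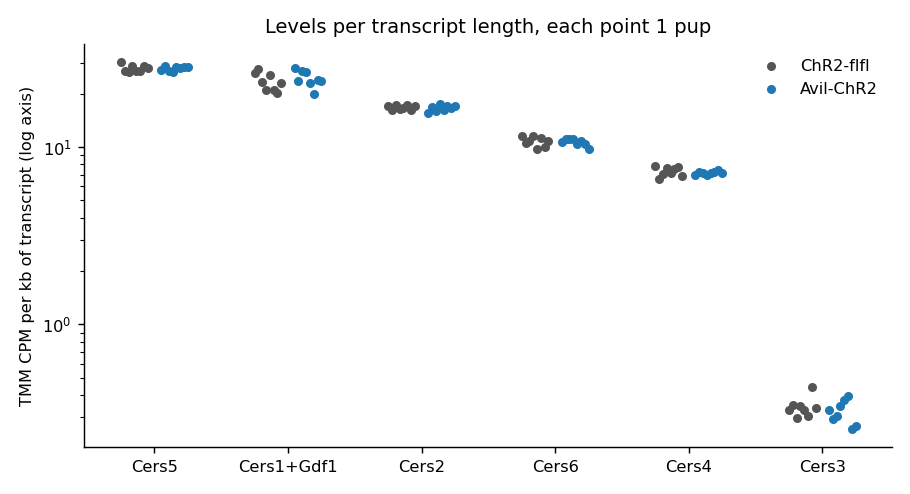
Points give the TMM CPM per kb of the longest transcript for each pup on a log axis, ChR2-flfl in grey and Avil-ChR2 in blue, with genes ordered by mean. Cers5 (27.8) and the sum of Cers1 and Gdf1 (24.0) overlap, the next 3 genes form separate steps, and Cers3 (0.332) lies far below.

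Sex and run of pup numbers were tested with genotype as a covariate. The values of single pups were known for Cers1 and Gdf1 when the genes were chosen, and both pups with no Cers1 value belong to numbers 26 to 33, so that neither test is independent of the choice for these entries and their sum. Neither the 7 genes nor the Cers1 and Gdf1 sum was called between female and male pups, whether sex came from the labels (9 entries called in all, 0.0425%, with 0 of 7 genes at an unadjusted p under 0.05, beside 4.46% of all entries) or from the additional file (11 entries, 0.0519%). The log2 differences, female minus male by the labels, were 0.01 (SE 0.073) for the sum, 0.02 (SE 0.030) for Cers2, -0.09 (SE 0.12) for Cers3, -0.03 (SE 0.034) for Cers4, -0.03 (SE 0.029) for Cers5 and 0.05 (SE 0.038) for Cers6. For Cers2 the 95% interval of the log2 difference by the labels was -0.05 to 0.08, and for the sum it was -0.14 to 0.17. The additional file lists Avil-ChR2 replicate 4 as male, the sex that its Ddx3y level goes with. By that file the sum was at -0.02 (SE 0.072) and Cers2 at -0.00317 (SE 0.030), both with the sign changed. Cers3 was at -0.12 (SE 0.12), Cers4 at -0.02 (SE 0.034), Cers5 at -0.01 (SE 0.029) and Cers6 at 0.03 (SE 0.038).

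The lowest p-values for the family came from the run of pup numbers, and they did not pass the adjustment. The sum of Cers1 and Gdf1 was lower in pups 35 to 42 than in pups 26 to 33 by a log2 difference of -0.17 (SE 0.060), with an adjusted p of 0.235 from limma. Cers6 was lower by -0.09 (SE 0.032, adjusted p = 0.237). Taken apart, Gdf1 gave -0.45 (SE 0.14) and Cers1 2.40 (SE 1.30), values that contain both pups with no Cers1 value and are given as a description. Without these 2 pups they were -0.21 (SE 0.076) for Gdf1 and -0.14 (SE 0.058) for Cers1, so that Cers1 changed sign. Of the 7 genes 2, Gdf1 and Cers6, had an unadjusted p under 0.05, as had 12.5% of all entries. The p of Gdf1 contains both pups with no Cers1 value, known when the genes were chosen, so that its part in this count is a description only. None of the 7 was called by limma or by voom, and 26 entries (0.123%) were called over the whole table. Cers2, Cers3, Cers4 and Cers5 had log2 differences between runs of 0.01 to 0.04. Sums of marker genes also differed between the runs, with no marker called by limma. The log2 difference, pups 35 to 42 minus pups 26 to 33, was -0.46 for the 4 striatal markers (25.9 to 44.7 against 37.3 to 56.0 CPM), -0.34 for the 4 red blood cell markers (226.7 to 294 against 257 to 465 CPM), -0.26 for the 6 oligodendrocyte markers (176.6 to 226 against 204 to 276 CPM) and 0.16 for the 4 markers of meninges and fibroblasts (146.5 to 252 against 127 to 258 CPM). The other 9 lists lay between -0.10 and 0.07, and the part of these shifts in the values of the sum and of Cers6 was not tested. No entry was called by limma or voom for an interaction of genotype with sex or with run (0% for each of the 2 interactions), and 4.31% and 3.04% of entries had an unadjusted p under 0.05. Of the 7 genes these were 0 for sex and 1 (14.3%) for run, namely Gdf1 at -0.63 (SE 0.26). That value contains both pups with no Cers1 value and is a description only.

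**Figure D4:**
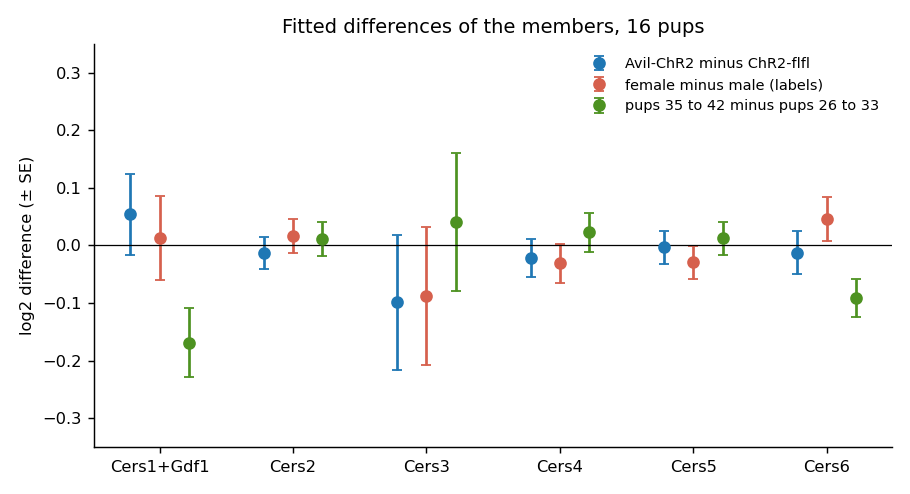
Points give the fitted log2 differences and bars their standard errors over 16 pups, for genotype (blue, a description with no test), sex by the labels (red) and run of pup numbers (green). The sum of Cers1 and Gdf1 (-0.17) and Cers6 (-0.09) lie lowest between runs, and neither passed the adjusted threshold.

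The sum of Cers1 and Gdf1 varied more between pups than most genes of its level. Its SD within genotypes was 0.16 on the log2 scale, above that of 95.8% of the 2361 entries within 0.5 log2 units of its mean, whose median SD was 0.070. Cers2 was at the other end, with a larger SD than 6.93% of the entries of its level, and the shares were 5.75% for Cers3, 26.3% for Cers5, 43.8% for Cers4 and 64.4% for Cers6. Relative to counting, the coefficient of variation was 6.11 times that expected for the sum, 3.21 times for Cers6, 2.58 times for Cers4, 2.22 times for Cers5, 1.35 times for Cers2 and 1.00 times for Cers3.

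This spread moved with the base composition of the libraries. For each pup, the mean log2 deviation of the fifth of genes with the most GC in their longest transcript minus that of the fifth with the least was taken as a GC contrast, a measure added after the data were seen. Over the 16 pups, with genotype means removed, the log2 sum of Cers1 and Gdf1 rose with the GC contrast (Pearson r = 0.918, permutation p = 1e-05, the smallest the permutations can give, adjusted p = 0.00018; Spearman rho = 0.924, permutation p = 2e-05, adjusted p = 0.00036). The relation had r = 0.868 without the 2 pups farthest from the median, 0.958 among pups 26 to 33 and 0.929 among pups 35 to 42. It was 1 of 18 relations computed between 6 measures of the family and the GC contrast, a like contrast of long and short transcripts, and depth. With the GC contrast as a term, the residual SD of the sum fell from 0.161 to 0.066 on the log2 scale and its genotype difference was -0.00378. The run difference of the sum was then -0.08 (SE 0.028, adjusted p = 0.273), while that of Cers6 was -0.11 (SE 0.030, adjusted p = 0.137). The longest Cers1 and Gdf1 transcripts hold 62.6% and 64.8% GC, above 98.9% and 99.6% of the genes compared, whereas the other 5 synthases lie between 43.5% and 51.4%. The mean GC contrast was -0.02 ± 0.13 in ChR2-flfl and 0.02 ± 0.10 in Avil-ChR2 pups (SD, n = 8 each), less than the spread within either genotype. The values of single pups for Cers1 and Gdf1 were known before the contrast was made, so its p-values for the sum are a description. The contrast sets GC-rich against GC-poor genes, and both transcripts are GC-rich. The relation is therefore not shown to be particular to this locus, and the share of GC-rich genes with a like r was not computed. What part base composition had in the values of the sum was not tested further.

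**Figure D5:**
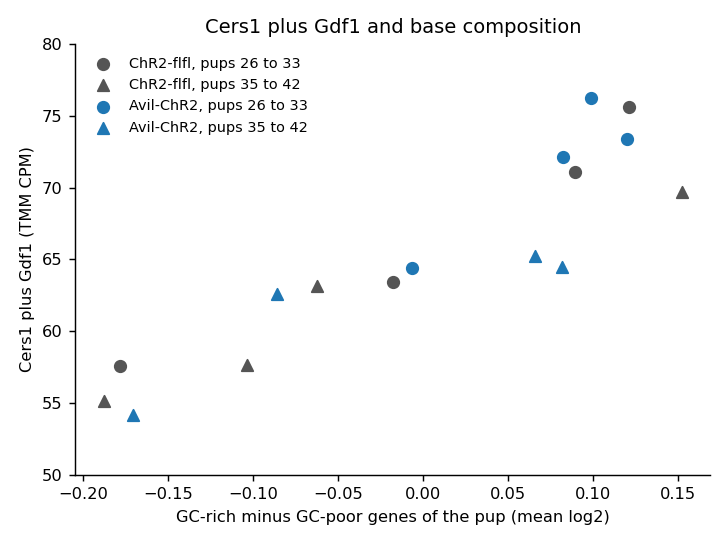
The x axis is the GC contrast of each pup (mean log2 of GC-rich minus GC-poor genes) and the y axis the sum of Cers1 and Gdf1 in TMM CPM, with ChR2-flfl in grey, Avil-ChR2 in blue, pups 26 to 33 as circles and pups 35 to 42 as triangles. The sum climbs from 54.2 to 76.3 CPM along the contrast in pups of both genotypes and both runs.

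No other member passed the adjustment against these library measures. Cers4 had the next relation, with r = 0.737 (permutation p = 0.0075, adjusted p = 0.0524) against the contrast of long and short transcripts, 0.924 within the run 26 to 33 and 0.429 within the run 35 to 42. The Spearman rho of the sum with that contrast was -0.697 (permutation p = 0.00508, adjusted p = 0.0457), whereas its Pearson r of -0.651 did not pass (permutation p = 0.00873, adjusted p = 0.0524) and was -0.345 in pups 26 to 33. The sum had r = 0.0105 with depth (permutation p = 0.939).

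Next it was asked whether the isoforms moved together from pup to pup. Among the 15 pairs of the sum and Cers2 to Cers6, with genotype means removed, none passed the adjustment over the 15 pairs. The closest was Cers4 with Cers5 at r = 0.678 (permutation p = 0.0115, adjusted p = 0.172) and rho = 0.688 (permutation p = 0.0105, adjusted p = 0.157), with r = 0.579 without the 2 farthest pups, 0.820 in pups 26 to 33 and 0.288 in pups 35 to 42. Next was the sum with Cers4 at r = -0.515 (permutation p = 0.0514, adjusted p = 0.385). With Cers1 and Gdf1 apart, none of the 20 pairs other than Cers1 with Gdf1 passed. The Cers1 with Gdf1 value of r = -0.880 was set by the 2 pups with no Cers1 value.

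By Pearson r over the 16 pups with genotype means removed, the genes most like the sum were Mif, a cytokine, at 0.974, Btbd2 at 0.973 and Fscn1, which bundles actin filaments, at 0.972, out of 15135 genes with a mean log2 of at least 0. Their transcripts hold 63.5%, 61.6% and 60.6% GC. For Cers2 the closest were Fzd1, a WNT receptor (0.841), Slc9a2 (0.813) and the mechanosensitive channel Piezo2 (0.802). Cers3 was closest to Gm20752 (0.874), Ddhd1 (0.815) and Mid2 (0.801). For Cers4 they were Sfxn2 (0.907), Dgat1, which makes triglyceride from diacylglycerol (0.894), and Uggt2 (0.881). The closest to Cers5 were Ddb2 (0.909), Ipw (0.881) and Cox18 (0.869), and to Cers6 Nfe2l3 (0.897), Mtfr1 (0.888) and the DNA ligase gene Lig4 (0.886). The genes closest to Cers1 taken apart, Mkl2 (0.865), Sostdc1 (0.769) and Agpat4 (0.760), rest on the 2 pups with no Cers1 value. All genes named here were picked as the highest of more than 15135 values of r over only 16 pups. Such picking gives high values of r by itself, and none of these relations was tested. For Cers3 the spread between pups was no larger than counting gives.

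Around the locus, 9 other entries within 100000 bases passed the filter, and none was called for genotype or run. The gene Upf1, a helicase of nonsense-mediated decay on the opposite strand, overlaps the end of both entries at chr8:70331522-70353999. It was at 69.8 CPM, with log2 differences of 0.01 (SE 0.050) for genotype and -0.10 (SE 0.045) for run, and a Pearson r of 0.898 with the sum. Armc6 had r = 0.918, Crtc1 0.774, Ddx49 0.773, Cope 0.758, Sugp2 0.740 and Homer3 0.634, while Comp and LOC100503831, both under 0.2 CPM, had 0.176 and -0.0357. The genes with r above 0.7 other than Sugp2 had a transcript GC above that of 82.9% to 92.0% of genes, and Sugp2 above 58.5%. Homer3, with a lower r of 0.634, lay above 96.0% of genes, so that r did not follow GC in order among these neighbours. Homer3 was also read at only 7.33 CPM, against 30.6 to 141.9 CPM for the genes with r above 0.7. What part this low level had in its r was not tested. The genotype log2 differences of the 9 entries ran from -0.04 for Comp to 0.15 for Homer3 (SE 0.063).

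None of the enzymes around the ceramide synthases was called between genotypes, beside 2 of 21183 entries (0.00944%) over the whole table. At that share, 0 calls in short lists say little about these enzymes. The lists named here were fixed with earlier results of these data known. In the list of de novo synthesis, which runs from serine palmitoyltransferase to the desaturases, all 11 genes passed the filter, 0 were called in either direction, and the median log2 difference was 0.0128, beside 0.00199 over all entries tested. Its lowest and highest differences among genes with a mean log2 of at least 0 were those of Sptssa, a small subunit of serine palmitoyltransferase, at 43.9 ± 2.71 and 42.2 ± 1.26 CPM in ChR2-flfl and Avil-ChR2 pups (log2 difference -0.05, SE 0.036, adjusted p = 0.945), and of Ormdl2, a regulator of that enzyme, at 4.74 ± 0.825 and 5.42 ± 0.877 CPM (0.20, SE 0.11, adjusted p = 0.931).

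Of the 19 genes of fatty acid elongation and acyl-CoA supply, which provide the second substrate, 18 passed the filter and 0 were called, with a median log2 difference of 0.016. Elovl1, an elongase of very long chains, was at 9.25 ± 0.536 and 9.02 ± 0.754 CPM (log2 difference -0.04, SE 0.055, adjusted p = 0.982). Acsl5, an acyl-CoA synthetase, was at 85.5 ± 3.76 and 88.8 ± 3.67 CPM (0.05, SE 0.032, adjusted p = 0.941).

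Of the 24 genes that use or break down ceramide, 23 passed the filter and 0 were called, with a median of -0.00353. Acer3, an alkaline ceramidase, was at 11.2 ± 0.933 and 10.4 ± 0.375 CPM (log2 difference -0.10, SE 0.050, adjusted p = 0.911), and Ugt8a, which makes galactosylceramide for myelin, was at 7.52 ± 1.44 and 8.02 ± 1.08 CPM (0.10, SE 0.10, adjusted p = 0.964). Of the 16 genes of GDF1 and Nodal type signalling, 12 passed and 0 were called, with a median of -0.0527. Genes above and below 0 numbered 3 and 9 in this list and 6 and 5 in de novo synthesis. They numbered 12 and 6 in elongation and acyl-CoA supply, and 11 and 12 in ceramide use and breakdown. No list was tested as a set. The receptor gene Acvr2b was at 17.8 ± 1.64 and 16.8 ± 1.39 CPM (log2 difference -0.08, SE 0.058, adjusted p = 0.945), and Dand5, which encodes an antagonist of NODAL, was at 5.26 ± 0.339 and 5.53 ± 0.426 CPM (0.07, SE 0.060, adjusted p = 0.953). Gdf3, Tdgf1, Cfc1 and Foxh1, a further ligand, both co-receptors and the partner of the SMAD proteins, did not pass the filter. Of the 64 list genes that passed, 0 had an unadjusted p under 0.05 for genotype, 2 (3.12%) for sex by the labels and 10 (15.6%) for run. Over all entries these shares were 5.41%, 4.46% and 12.5%, and limma and voom called 0 of the list genes in each of these comparisons.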

How the data were processed

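RNA was sequenced from the cortex of 16 pups, and groups follow the labels. Per the labels and the study's methods, reads of mRNA libraries were mapped to mm10 (GRCm38) with SeqMan NGen, and mapped reads per entry were taken from ArrayStar. The deposited values are CPM that the authors scaled with the TMM method of edgeR, with empty cells where an entry had no reads. All 16 value columns were used. Divided by what 1 read is worth in a pup, the values up to 20000 reads came out whole within 0.05 (100% of them), which gave back read counts and depth.

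The 7 genes and the gene lists were chosen with earlier results of these data known. CPM were taken to log2 with missing values or values under -5 set to -5, and entries above -5 in at least 12 of 16 pups were kept. limma 3.58.1 (trend) in R 4.3.3 was fitted to all 21183 entries for genotype, for sex and run with genotype as covariate, and for interactions, with Benjamini-Hochberg adjustment at 0.05, after a check on simulated data. The Cers1 and Gdf1 sum was fitted as a further row and its p adjusted with both single entries left out. Correlations used 100000 permutations within genotypes. The genes named are the 7 members, Avil, Xist and Ddx3y as checks, list genes at the extremes of each list with a mean log2 of at least 0, entries within 100000 bases of the Cers1 locus, and the 3 genes most like each member, which for Gdf1 are not reported here. Lengths, GC content and sequences came from GENCODE M21 and RefSeq, the former by the symbol of 91.5% of the 15137 genes compared. Replicate numbers 1 to 8 are serial numbers of different pups and pair nothing in the labels, and litters are not given in the sources used here. Libraries were prepared with a stranded kit per the study's methods, whereas whether strand was used in counting is not given in the sources used here.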

Additional observations from a re-analysis of the deposited data

Results flagged for a closer look

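Among the 8 ChR2-flfl pups, replicate 7 stood apart for Cers3. Its value of 1.43 CPM was separated from the next highest pup, at 1.14 CPM, by 63.3% of the whole range of the group, above Dixon's 95% critical value for 8 samples. Of 16 such checks, over the 7 genes and the Cers1 and Gdf1 sum in both genotypes, this was the only value set apart. Chance alone flags about 1 in 20 checks, so that 1 flag in 16 is near what chance gives. The gap rests on few reads, since Cers3 had 30 to 69 reads per pup. The 2 pups with no Cers1 value did not stand apart by this measure, because each is the nearest neighbour of the other.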

How the results depend on the processing

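The log2 difference of the Cers1 and Gdf1 sum between genotypes was 0.05 and stayed within the spread between pups under all settings tried, from -0.00378 with the GC contrast of the libraries as a covariate, a setting chosen after seeing the data, to 0.10 in pups 26 to 33. With each pup left out in turn it ran from 0.0242 to 0.0957. Neither the 7 genes nor the sum was called by sex or run under the settings in which both were fitted, covariates and left-out pups included. The count of entries called for genotype, 2, was 1 with median centring, 1 in pups 26 to 33 and 1 in pups 35 to 42 alone, 1 without both pups that have no Cers1 value, 1 to 2 with each pup left out and 3 with the run of pup numbers as covariate. With the replicate number as a block it was also 1, and the difference of the sum was unchanged at 0.05. The numbers did not pair the pups: deviations of same-numbered pups had correlations of -0.0695 to 0.125 over the entries, and 1 of 8 ChR2-flfl pups correlated best with its own number. The count for run, 26, was 4 without a filter, 16 with sex added, 10 with the GC contrast, 10 without both pups that have no Cers1 value, and 7 to 123 with each pup left out. It was 7 without Avil-ChR2 replicate 1 and 123 without ChR2-flfl replicate 4. The counts for both interactions, 0, were 1 each without a filter. The count for sex ran from 6 to 11 over all settings. The number of member pairs that correlate past the adjusted threshold was 0 under all settings tried. The order of levels per kb changed for 4 of 6 genes with coding length in place of transcript length, and for 5 with the coding bases of both reading frames for the sum, a setting chosen after seeing the data. The test of a negative binomial model on the recovered reads, planned at first, was not run, and voom on these reads was used in its place. The causes of these shifts were not tested. At this depth Cers3 could not be told from counting error.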

Other observations

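In the 14 pups with both entries read, the share of Gdf1 in the sum moved with the sum itself, a relation noticed in the data. Over these pups Pearson r was 0.927 and Spearman rho 0.886. Pearson r was 0.900 without the 2 pups farthest from the median. It was 0.973 in the 6 pups of numbers 26 to 33 and 0.815 in the 8 pups of numbers 35 to 42. These values are a description with no test, since the values of single pups were known when the genes were chosen. Gdf1 had more reads than Cers1 in 5 pups, all with a sum of 69.7 CPM or above, and fewer in 9 pups, all with a sum of 65.3 CPM or below. Gdf1 is part of both measures, so that they are not independent.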
